A study of Mus musculus with 24 samples.

Results

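Spink8, Fibcd1, Wfs1, Pou3f1, Mpped1, Gpr161, Grik4 and Coch are marker genes of the pyramidal neurons of hippocampal fields CA1 and CA3. They were chosen by symbol as known markers, by a rule that uses no measured value but that was set with earlier results of these data known, and make up 8 of the 24062 genes in the count table. All 8 had reads in each of the 24 libraries, and all 8 were among the 16313 genes kept by the filter on low counts. The tissue was micro-dissected hippocampus of C57BL/6 mice, which crossed a knockout of the interleukin-1 receptor 1 in neurons (KO) or the wild-type genotype (WT) with paired fighting social defeat (stress) or no stress (control). There were 5 KO stress, 6 KO control, 6 WT stress and 7 WT control libraries, with 25711872 to 35148198 counts each. The sources used here give no age or sex of the mice, no Cre line for the neuronal deletion and no time between the last fight and dissection. Nothing in the labels says that libraries come from different mice, so the p-values reflect spread among libraries that may be technical.

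Pyramidal neurons are the glutamatergic principal cells of the CA fields. CA3 cells receive the mossy fibres of dentate granule cells and excite CA1 cells through the Schaffer collaterals, and CA1 sends the main output of the hippocampus to the subiculum and cortex. Because a dissected hippocampus mixes the CA fields with the dentate gyrus, glia and a rim of neighbouring tissue, the level of a pyramidal marker in bulk RNA follows both how many pyramidal cells a sample holds and how much of the RNA each cell makes, and fewer cells of a type and less RNA per cell cannot be told apart.

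The 6 CA1 markers have unlike functions. Spink8 encodes a Kazal-type serine protease inhibitor, and Fibcd1 a membrane protein with a fibrinogen-like domain that binds chitin and other acetylated sugars. Wfs1 encodes wolframin of the endoplasmic reticulum, which is mutated in Wolfram syndrome, and Pou3f1 is a POU-domain transcription factor. Mpped1 encodes a metallophosphoesterase-domain protein, and Gpr161 an orphan receptor of the primary cilium that restrains Hedgehog signalling. Of the 2 CA3 markers, Grik4 encodes the kainate receptor subunit GluK4 and Coch the secreted matrix protein cochlin, known from the inner ear. Pou3f1, Wfs1 and Mpped1 are also expressed in neurons outside the hippocampus, neocortex included.

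Levels per length of transcript, given as CPM (counts divided by TMM-scaled library size and put on the usual common total) and divided by kilobases of merged exons in GENCODE M21, ran from a median of 50.2 CPM per kb for Mpped1 to 0.495 CPM per kb for Gpr161. Wfs1 had a median of 38.4, Fibcd1 19.8, Pou3f1 16.7, Spink8 11.8, Grik4 6.88 and Coch 4.71 CPM per kb (n = 24 libraries). The order between neighbours was not the same in every library: Mpped1 stood above Wfs1 in 19 of 24, Fibcd1 above Pou3f1 in 16 of 24 and Grik4 above Coch in 18 of 24. Wfs1 stood above Fibcd1, and Coch above Gpr161, in all 24.

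Genome positions in mm10, from the annotation, were chromosome 9 from 109812280 to 109826633 for Spink8, chromosome 2 from 31813290 to 31846005 for Fibcd1, chromosome 5 from 36966104 to 36989205 for Wfs1 and chromosome 4 from 124656807 to 124660655 for Pou3f1. Mpped1 lies on chromosome 15 from 83779467 to 83858494, Gpr161 on chromosome 1 from 165295789 to 165326745, Grik4 on chromosome 9 from 42518135 to 42944493 and Coch on chromosome 12 from 51593341 to 51605771. All 8 are protein-coding genes. Pou3f1 shares its place with the antisense gene Gm2164 and Grik4 with 2 small RNA genes, none of which is in the count table.

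Promoter sequences (250 bases before to 50 bases after the start, RefSeq, GRCm38.p6) were found for 6 of the 8 genes, Spink8 and Pou3f1 being the others. Those of Fibcd1, Coch and the first of 2 entries of Gpr161 are shown because, between the library classes described below, Fibcd1 was higher, Coch was lower and Gpr161 did not pass the test. Capitals mark the GC box GGGCGG, or CCGCCC where it lies on the other strand. They lie at chr2:31845956-31846255 on the minus strand for Fibcd1, at chr12:51593091-51593390 on the plus strand for Coch and at chr1:165295516-165295815 on the plus strand for Gpr161.
Fibcd1: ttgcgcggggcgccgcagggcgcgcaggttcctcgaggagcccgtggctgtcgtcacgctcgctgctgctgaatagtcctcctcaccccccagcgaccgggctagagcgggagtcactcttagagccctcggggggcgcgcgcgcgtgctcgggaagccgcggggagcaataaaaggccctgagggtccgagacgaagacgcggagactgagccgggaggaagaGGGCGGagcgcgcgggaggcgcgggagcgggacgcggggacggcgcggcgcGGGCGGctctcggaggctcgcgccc
Coch: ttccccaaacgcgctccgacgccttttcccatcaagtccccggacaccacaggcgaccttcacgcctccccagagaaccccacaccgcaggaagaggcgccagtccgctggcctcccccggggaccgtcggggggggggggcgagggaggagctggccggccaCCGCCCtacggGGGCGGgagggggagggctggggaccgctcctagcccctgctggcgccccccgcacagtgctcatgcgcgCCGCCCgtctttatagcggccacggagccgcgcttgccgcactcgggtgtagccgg
Gpr161: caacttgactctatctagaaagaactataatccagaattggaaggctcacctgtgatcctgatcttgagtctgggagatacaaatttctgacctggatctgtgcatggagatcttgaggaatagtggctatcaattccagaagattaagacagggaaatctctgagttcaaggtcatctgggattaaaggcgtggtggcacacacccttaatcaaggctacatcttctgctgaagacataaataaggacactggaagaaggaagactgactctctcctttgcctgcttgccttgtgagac
The Fibcd1 window holds 2 GC boxes and 74.3% G and C, the Coch window 3 boxes and 73.7%, and the Gpr161 window none and 44% (the median over all promoters in the table is 52.7%). The 6 genes have 8 promoter entries, Gpr161 and Mpped1 having 2 each, and a GC box on either strand was present in 5 of the 8 entries, against 35.7% of the 32851 promoters of the table. Of the other motifs searched on both strands, TATAAA was present in 1 of the 8 (13.6% of all promoters), CCAAT in 2 (37.4%) and TGACGTCA in none (1.79%). These matches describe the letters in the windows.

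The libraries fall into 2 classes that follow the replicate numbers of the titles and that were drawn at the widest gap in Rn45s, the precursor of ribosomal RNA. The 13 high-numbered libraries had 4238 to 8394 CPM of Rn45s, and the 11 low-numbered libraries 24298 to 50424 CPM. The high-numbered class holds 3 KO stress, 2 KO control, 4 WT stress and 4 WT control libraries, and the low-numbered class holds 2, 4, 2 and 3 in the same order. Malat1, a nuclear non-coding RNA, had a median of 606 CPM in high-numbered and 1324 CPM in low-numbered libraries, and Lars2, the mitochondrial leucyl-tRNA synthetase gene, 539 and 1895 CPM. In the high-numbered class, KO stress replicates 3 and 5 and WT stress replicate 5 also carried transcripts of the thalamus: Tcf7l2, a transcription factor strongly expressed there, stood at 86.9 to 109 CPM in these 3, at 5.66 to 16.7 CPM in the other 10 and at 26.3 to 60.7 CPM in the low-numbered class. All 3 are stress libraries. The low-numbered libraries thus carried thalamic transcripts too, and below, the libraries with thalamic transcripts are these 3 only. The targeted gene, Il1r1, had 1.99 to 7.93 CPM over all libraries and had a log2 fold change of 0.04 ± 0.26 (SE) between KO and WT controls, which did not pass the test. Il1r1 is also expressed outside neurons and the deleted exons are not given, so this does not check the genotype labels.

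Most of the pyramidal markers differed between the 2 library classes. Spink8, Fibcd1, Wfs1, Pou3f1, Mpped1 and Grik4 were higher in the high-numbered libraries, by 1.31 to 2.62 times, Coch was lower, at 0.528 times, and Gpr161 did not pass the test. Thus 7 of the 8 passed at an adjusted p under 0.05, 6 higher and 1 lower, where 20.8% of all tested genes passed (11.2% higher and 9.56% lower). The test was the edgeR quasi-likelihood F test with group as a further term and Benjamini-Hochberg adjustment over 16313 genes, and standard errors (SE) are approximate. The median log2 fold change was 0.56 over the 8 genes, against 7.75e-05 over all genes tested. In none of the 8 were the ranges of the 2 classes fully apart, as they were for 0.699% of all genes tested.

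Spink8 had 6.11, 19.8 and 41.8 CPM (lowest, median and highest) in the high-numbered libraries, and 4.11, 7.39 and 10.5 CPM in the low-numbered ones. The difference was a log2 fold change of 1.39 ± 0.23 (adjusted p = 0.000222, edgeR), the largest of the 8. The ranges overlapped only through KO stress replicates 3 and 5 of the high-numbered class, which had 6.11 and 8.26 CPM and are among the libraries with thalamic transcripts. Fibcd1 had 83.5, 154 and 231 CPM in the high-numbered and 26.5, 80.7 and 87.0 CPM in the low-numbered libraries, a log2 fold change of 1.17 ± 0.19 (adjusted p = 0.000152, edgeR). Here the overlap came from KO stress replicate 3 alone.

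Pou3f1 had 52.1, 105 and 145 CPM in the high-numbered libraries and 41.9, 54.5 and 65.5 CPM in the low-numbered libraries (log2 fold change 0.75 ± 0.13, adjusted p = 0.000313, edgeR). Each of the 3 libraries with thalamic transcripts lay inside the low-numbered range, at 52.1 to 61.7 CPM, and the other 10 high-numbered libraries had 88.3 to 145 CPM. Mpped1 had the smallest difference among the genes that passed: 130.1, 269 and 307 CPM in the high-numbered and 146, 192 and 234 CPM in the low-numbered class, a log2 fold change of 0.39 ± 0.11 (adjusted p = 0.0133, edgeR). In Mpped1 the same 3 libraries, with 130.1 to 164 CPM, lay below all of the other 10, with 237 to 307 CPM.

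Wfs1 had 122, 189 and 279 CPM in the high-numbered and 105, 132 and 157 CPM in the low-numbered libraries (log2 fold change 0.53 ± 0.11, adjusted p = 0.00177, edgeR). Again the 3 libraries with thalamic transcripts, at 122 to 140 CPM, were inside the low-numbered range, and the other 10, at 160.0 to 279 CPM, were above it. Gpr161, the least abundant of the 8, had 3.21, 3.70 and 6.35 CPM in the high-numbered and 1.74, 3.02 and 8.39 CPM in the low-numbered libraries, with a log2 fold change of 0.27 ± 0.20 (adjusted p = 0.365, edgeR). Its direction was not stable: among the control libraries alone the value was −0.10, and among the stress libraries alone 0.76. The low-numbered WT controls had 5.30, 6.50 and 8.39 CPM of Gpr161, above all other low-numbered libraries, at 1.74 to 3.47 CPM.

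The CA3 markers went opposite ways. Grik4, the kainate receptor subunit, had 37.9, 55.5 and 66.9 CPM in the high-numbered and 30.0, 34.7 and 43.8 CPM in the low-numbered libraries, a log2 fold change of 0.60 ± 0.07 with the smallest adjusted p of the 8 (4.36e-06, edgeR). Coch, the cochlin gene, had 3.31, 11.5 and 15.5 CPM in the high-numbered and 13.6, 20.9 and 32.8 CPM in the low-numbered libraries, a log2 fold change of −0.92 ± 0.21 (adjusted p = 0.00286, edgeR). Only 3 high-numbered libraries, KO stress replicate 3, WT stress replicate 3 and WT control replicate 7, reached the low-numbered range of Coch. Iyd, the iodotyrosine deiodinase gene, and Bok, a BCL2-family gene, were also listed as CA3 markers and went with Grik4, at log2 fold changes of 1.30 ± 0.27 and 0.63 ± 0.17 (adjusted p = 0.00139 and 0.0103, edgeR).

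**Figure D1:**
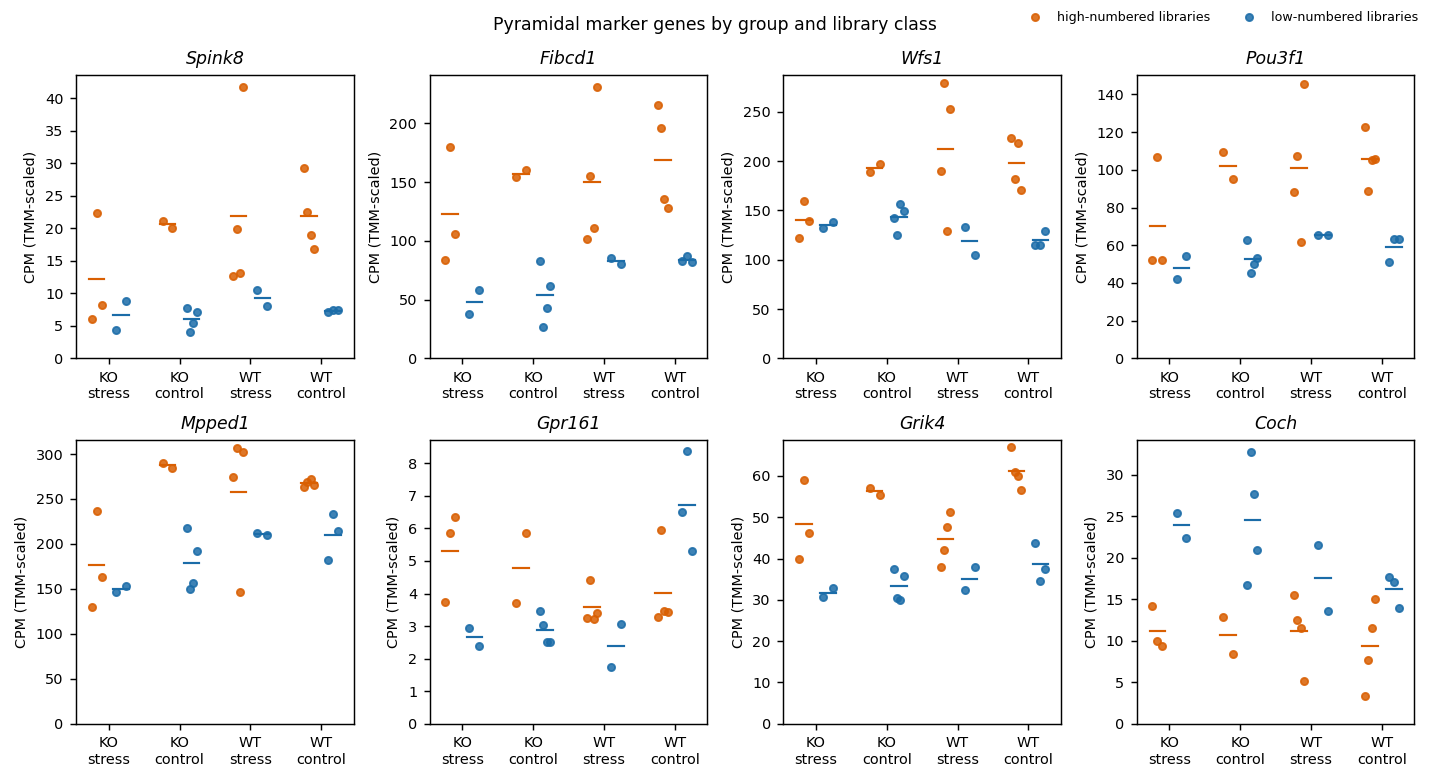
Level of each of the 8 genes (y axis, CPM on TMM-scaled library sizes) in each library of the 4 groups (x axis), with high-numbered libraries in orange and low-numbered in blue; each point is a library and each bar the mean of its group and class. Orange points lie above all blue ones in each group for Fibcd1 and Grik4 and in all but KO stress for Spink8, and below them in both KO groups for Coch, whose classes overlap in both WT groups, and the low orange stress points of Mpped1, Pou3f1 and Wfs1 are the libraries with thalamic transcripts.

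The difference between the classes was present in control libraries by themselves, where the same 7 genes passed (24.4% of all genes did) with log2 fold changes of 1.65 for Spink8, 1.24 for Fibcd1, 0.59 for Wfs1, 0.88 for Pou3f1, 0.49 for Mpped1, 0.70 for Grik4 and −0.97 for Coch. Among the 11 stress libraries by themselves 0 of the 8 passed (2.13% of all genes did), and the values were 1.06, 1.07, 0.44, 0.57, 0.25, 0.46 and −0.88 in the same order, each in the direction of the controls. When the 3 stress libraries with thalamic transcripts were left out of the stress libraries, 5 passed (Wfs1, Pou3f1, Mpped1, Gpr161 and Grik4), where 11.4% of all genes did, with Spink8 at 1.53 and Fibcd1 at 1.31. Leaving these 3 out of all libraries kept the same 7 genes past the threshold, where 31.1% of all genes passed, with Spink8 at 1.61 and Mpped1 at 0.51. With the mean level of 18 thalamus and habenula markers as a term in the fit, 6 passed, where 14.8% of all genes did: Mpped1 had 0.13 (adjusted p = 0.167, edgeR), Pou3f1 0.45 and Spink8 0.97, while Grik4 (0.53) and Coch (−0.80) moved less.

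**Figure D2:**
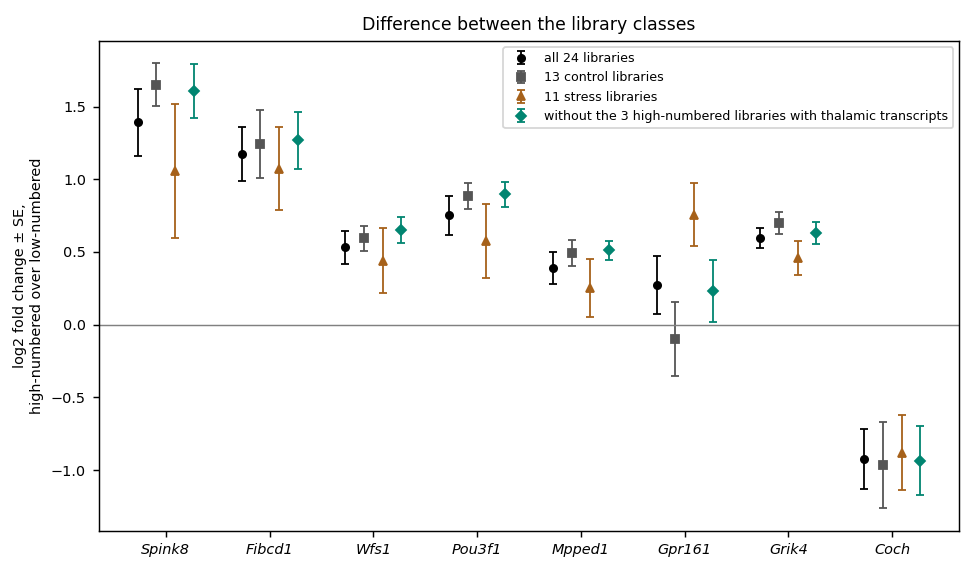
Log2 fold change of high-numbered over low-numbered libraries (y axis) for each gene (x axis), with bars of 1 SE, over all 24 libraries, the 13 control libraries, the 11 stress libraries and all libraries but the 3 with thalamic transcripts. Coch lies below 0 and 6 genes lie above 0 in all 4 fits, and Gpr161 crosses 0.

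Other genes of the same cells were counted beside the 8. Of 25 further CA1 and CA3 markers, all of them tested, 14 were higher and 4 lower in the high-numbered libraries, with a median log2 fold change of 0.47. Of all tested genes, 11.2% were higher and 9.56% lower. The 6 with the smallest p were all higher: Homer3, a postsynaptic scaffold gene (1.21 ± 0.13), Neurod6, a transcription factor of pyramidal neurons (1.19 ± 0.14), St18 (0.68 ± 0.10), Prss35 (0.86 ± 0.15), Pvrl3, the adhesion gene also called Nectin3 (0.56 ± 0.10), and Csf2rb2 (1.04 ± 0.18), with adjusted p of at most 0.000231 (edgeR). Neurod6 had 74.3 to 244 CPM in the high-numbered and 56.0 to 85.6 CPM in the low-numbered libraries. The 4 that were lower, in the direction of Coch, were Tyro3, Plagl1, Kcnh7 and Zbtb20.

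Marker lists of other regions and cell types held unequal numbers of genes that differed between the classes, to be read against the 20.8% of all genes, and their part in the pyramidal result was not tested beyond the thalamic term above. Of 14 dentate granule cell markers, 9 were higher and 0 lower in the high-numbered libraries, with summed levels of 353 to 574 CPM, against 253 to 343 CPM in the low-numbered libraries. Of 12 neocortex markers 2 were higher and 8 lower, with 314 to 591 CPM in the high-numbered and 534 to 621 CPM in the low-numbered libraries. Of 18 thalamus and habenula markers 2 were lower. Their lowest, median and highest sums were 334, 405 and 1479 CPM in the high-numbered and 557, 961 and 1123 CPM in the low-numbered libraries. Their mean log2(CPM + 0.5) was 5.30 to 5.65 in the 3 high-numbered libraries with thalamic transcripts and 3.09 to 4.08 in the other 10. It was 3.82 to 5.18 in the low-numbered libraries. Of 9 striatum markers 5 were lower (164 to 317 CPM in the high-numbered and 215 to 1134 CPM in the low-numbered libraries). Interneuron markers gave 4 lower of 12, ventral hippocampus markers 2 lower of 9, and CA2 markers 2 higher and 1 lower of 6 tested. Among non-neuronal lists, 6 of 10 microglia, 5 of 10 endothelial, 2 of 10 astrocyte and 1 of 10 oligodendrocyte markers were higher and 0, 1, 4 and 0 lower, and none of 12 choroid plexus markers passed.

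Within a class, the pyramidal markers varied together in part, and Coch ran against several of them. Correlations were taken over log2(CPM + 0.5) with two-sided permutation tests and Benjamini-Hochberg adjustment over the 56 pairs in both classes. Relations were counted as passing by the p of Pearson r, and p-values are those of r unless rho is named. Of 28 pairs, 10 passed among the 11 low-numbered libraries, 6 positive and 4 negative, and the 4 negative ones all involved Coch. Among the 13 high-numbered libraries 13 pairs passed, but there the 3 libraries with thalamic transcripts lay apart from the others in Mpped1, Pou3f1 and Wfs1. In the other genes their range overlapped that of the other high-numbered libraries. Over the other 10 high-numbered libraries 4 pairs passed (adjusted over the 28 pairs). The share of all pairs of genes that would pass was not computed, so these counts are not shown to be particular to the markers. The permutations ignored group, so these relations are not separated from differences between the groups of a class.

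Spink8 and Fibcd1 passed by r in both classes, but by rho not in the low-numbered one. Over those 10 high-numbered libraries they had r = 0.934 and rho = 0.964 (permutation p = 6e-05, adjusted 0.00168). Over the 11 low-numbered libraries they had r = 0.856 (permutation p = 0.00165, adjusted 0.00754) and rho = 0.600 (adjusted permutation p of rho = 0.131). The low-numbered relation rested in part on 2 libraries, since r was 0.564 without those farthest from the median of Spink8, and 0.930 in the 10 high-numbered libraries. Fibcd1 and Coch had r = −0.859 over the 10 high-numbered libraries (rho −0.939, permutation p = 0.00114, adjusted 0.0160) and r = −0.874 over the low-numbered ones (rho −0.673, permutation p = 0.00027, adjusted 0.00364), and −0.855 and −0.781 without 2 libraries. The low-numbered rho of this pair did not pass (adjusted permutation p = 0.0888). Among the low-numbered libraries, the one lowest in Fibcd1, KO control replicate 2 with 26.5 CPM, was the highest in Coch with 32.8 CPM. The low-numbered WT libraries taken alone did not run this way. Of these, WT stress replicate 2 was lowest in both Fibcd1, with 80.7 CPM, and Coch, with 13.6 CPM. Among the high-numbered, WT control replicate 4 was lowest in Coch, with 3.31 CPM, and second to WT stress replicate 6 in Fibcd1, with 215 CPM.

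Other pairs had unlike values in the 2 classes, and the difference between classes was not tested. Pou3f1 and Mpped1 had r = 0.896 over the low-numbered libraries (rho 0.791, permutation p = 0.00038, adjusted 0.00364; 0.827 without 2 libraries) and r = 0.253 over the 10 high-numbered libraries (rho 0.188, permutation p = 0.477, adjusted 0.636). Both genes in part followed genotype in the low-numbered class. Mpped1 had means of 150 and 179 CPM in KO stress and control, and 211 and 210 CPM in WT stress and control. For Pou3f1 the means were 48.2, 52.8, 65.4 and 59.2 CPM in the same order. Relations within a genotype were not tested. Wfs1 passed with none of the other 7 genes in the low-numbered libraries: with Mpped1 it had r = −0.332 there (adjusted permutation p = 0.417) and r = 0.760 over the 10 high-numbered libraries (adjusted permutation p = 0.0598). Gpr161 passed with none of the other 7 genes over the low-numbered libraries or over the 10 high-numbered libraries. Grik4 and Coch, the CA3 pair, had r = −0.785 over the low-numbered libraries (adjusted permutation p = 0.0138) and −0.517 over the 10 high-numbered ones (adjusted permutation p = 0.353).

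Levels of region markers were set against the genes in the same way, over 64 relations of 4 marker lists with the 8 genes. How many other genes would pass with these lists was not computed. In the low-numbered libraries 4 relations passed, all with the thalamus and habenula markers, among them Pou3f1 (r = −0.892, rho −0.855, adjusted permutation p = 0.00533), Mpped1 (r = −0.860, rho −0.836, adjusted permutation p = 0.0122) and Coch (r = 0.763, rho 0.836, adjusted permutation p = 0.0335). They kept r = −0.902, −0.886 and 0.669 without the 2 libraries farthest from the median of the markers. In the low-numbered class these markers in part followed genotype. Their mean level on the log2 scale was 3.83 to 4.90 in WT libraries. In KO libraries it was 4.92 to 5.18, except for KO control replicate 1, at 3.82. The permutations ignored genotype, so these relations are not separated from a difference between KO and WT libraries. Relations within a genotype were not tested. Over the 10 high-numbered libraries without thalamic transcripts 3 of 32 passed, all with the neocortex markers: Coch (r = 0.830, rho 0.891), Fibcd1 (r = −0.859, rho −0.867) and Spink8 (r = −0.777, rho −0.830), each with an adjusted permutation p of 0.0210. In the low-numbered libraries the neocortex markers had r = 0.244 with Coch and −0.422 with Fibcd1 (adjusted permutation p = 0.628 and 0.321).

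**Figure D3:**
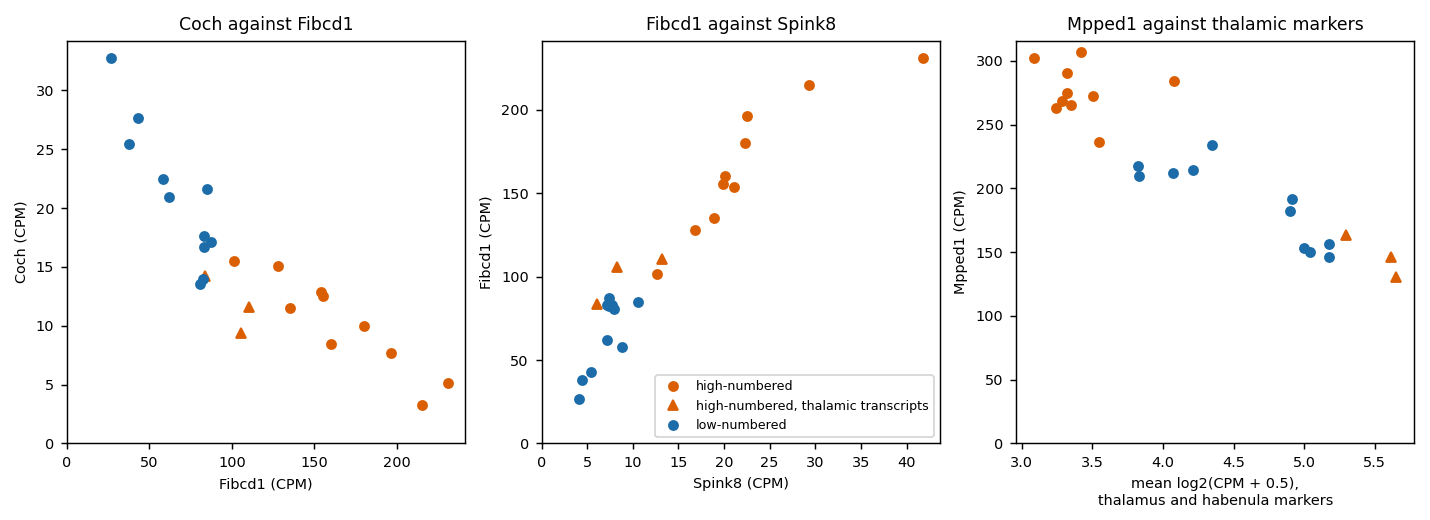
Level of Coch against Fibcd1, of Fibcd1 against Spink8 (all axes in CPM), and of Mpped1 (CPM) against the mean log2(CPM + 0.5) of 18 thalamus and habenula markers; each point is a library, orange for the high-numbered class (triangles for its 3 libraries with thalamic transcripts) and blue for the low-numbered class. Coch falls as Fibcd1 rises over each class as a whole, but not among the low-numbered WT libraries taken alone. Fibcd1 rises with Spink8, and the triangles have the lowest Mpped1 of the high-numbered class, at 130.1 to 164 CPM.

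The genes most like each marker, by the correlation over all 24 libraries of what was left of log2 CPM after group and class (14275 genes of at least 1 CPM searched), differed from marker to marker. Among the genes closest to Spink8 were Kcnab2 (r = 0.945) and Cpne6. Fibcd1 was closest to Lefty1 (r = 0.920), Zmat5 and Crym, and Pou3f1 to the chemokine gene Cxcl14 (r = 0.929), Kcnab2 and Git1. Mpped1 was closest to the transcription factor genes Bcl11a (r = 0.935) and Fezf2 and to Tmem178, and Wfs1 to Dgat2 (r = 0.845), H2-DMa and Jph4. For Grik4 the closest were Tnxb (r = 0.771), Tmc3 and Prss35, for Gpr161 Rere (r = 0.854), Hif1an and Myo19, and for Coch the ephrin gene Efna5 (r = 0.851), Rgs4 and Rasgef1c. These values are a description, without a test, and the libraries with thalamic transcripts are among the 24.

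Social defeat was not followed by a detected change in the pyramidal markers in either genotype. In KO mice, 0 of the 8 passed, where 0.00613% of all tested genes did, and in WT mice 0 of the 8, where 0.135% did (1 and 22 of 16313 genes). By edgeR p before adjustment, 0 of the 8 were below 0.05 in KO mice and 1 was in WT mice, Gpr161. Of all 16313 genes, 648 in KO and 720 in WT mice were. With a DESeq2 Wald test and with limma voom the count was 0 in each genotype as well. These fits had 4 group means and no class term, so differences between the classes are part of their spread. The classes were unevenly split in KO, with 3 high- and 2 low-numbered stress libraries and 2 high- and 4 low-numbered controls. With class as a term the count was 0 in each genotype too.

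In KO mice, stress against control, Spink8 had 4.43, 6.11, 8.26, 8.87 and 22.3 CPM in the 5 KO stress libraries, and a lowest, median and highest of 4.11, 7.46 and 21.1 CPM in the 6 KO controls. The groups overlapped throughout, and the log2 fold change was −0.13 ± 0.53. Mpped1 had 130.1, 146, 153, 164 and 237 CPM in KO stress and 150.01, 205 and 290.4 CPM in KO controls, with a log2 fold change of −0.37 ± 0.20 (adjusted p = 0.988, edgeR), or −0.27 ± 0.21 without the libraries with thalamic transcripts. The low-numbered KO libraries stayed in that fit. Their mean log2(CPM + 0.5) of thalamus and habenula markers was 3.82 to 5.18, against 5.65 and 5.30 in the omitted KO stress replicates 3 and 5. The other log2 fold changes were 0.08 ± 0.44 for Fibcd1, −0.21 ± 0.22 for Wfs1, −0.17 ± 0.30 for Pou3f1, 0.28 ± 0.29 for Gpr161, 0.02 ± 0.20 for Grik4 and −0.29 ± 0.40 for Coch, with adjusted p of at least 0.988 (edgeR).

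In WT mice Gpr161 had 1.74, 3.23 and 4.42 CPM in the 6 stress libraries and 3.27, 5.30 and 8.39 CPM in the 7 controls, a log2 fold change of −0.70 ± 0.27 (adjusted p = 0.908, edgeR). In the low-numbered class the 2 stress libraries had 1.74 and 3.06 CPM of Gpr161 and the 3 controls 5.30, 6.50 and 8.39 CPM, without overlap, as was so for 21.2% of all genes in these libraries. Within that class the log2 fold change was −1.48 ± 0.30 (adjusted p = 0.484, edgeR), and within the high-numbered class −0.17 ± 0.25; the difference between these values was not tested. Grik4 had 32.4, 40.0 and 51.2 CPM in WT stress and 34.7, 56.5 and 66.9 CPM in WT controls, a log2 fold change of −0.31 ± 0.19. Of the high-numbered libraries, the 4 WT stress libraries had 37.9 to 51.2 CPM of Grik4 and the 4 WT controls 56.5 to 66.9 CPM, without overlap, as was so for 4.18% of all genes, and the log2 fold change within that class was −0.45 ± 0.12 (adjusted p = 0.225, edgeR), or −0.49 without the libraries with thalamic transcripts (adjusted p = 0.0619, edgeR). The other 6 genes had log2 fold changes of 0.17 ± 0.48 (Spink8), −0.056 ± 0.41 (Fibcd1), 0.14 ± 0.20 (Wfs1), 0.05 ± 0.27 (Pou3f1), −0.0053 ± 0.18 (Mpped1) and 0.11 ± 0.37 (Coch).

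The stress effect was not shown to differ between genotypes for any of the 8, where 0% of all genes passed the interaction (0 of 16313 in edgeR, 384 at an unadjusted p under 0.05, Gpr161 being 1 of them). For Gpr161 the KO effect minus the WT effect was 0.98 ± 0.40 (adjusted p = 1.0, edgeR), 0.33 within the high-numbered and 1.38 within the low-numbered libraries. KO against WT, 0 of the 8 passed in controls (0% of all genes) and 0 under stress (0%), and edgeR p before adjustment was below 0.05 for 1 gene each, Gpr161 in controls and Mpped1 under stress. DESeq2 and limma voom also called 0 of the 8 in these comparisons and in the interaction. In controls, Gpr161 had a log2 fold change of −0.56 ± 0.27, with 0.25 in the high-numbered and −1.22 in the low-numbered libraries, and Coch one of 0.69 ± 0.37, with 0.17 in the high-numbered and 0.60 in the low-numbered libraries. Coch had 8.42, 18.8 and 32.8 CPM in KO controls and 3.31, 14.0 and 17.6 CPM in WT controls. Under stress, Mpped1 had 130.1 to 237 CPM in KO and 146, 243 and 307 CPM in WT libraries (log2 fold change −0.54 ± 0.20, adjusted p = 0.798, edgeR), and Spink8 had −0.82 ± 0.54. Without the libraries with thalamic transcripts these were −0.55 ± 0.22 for Mpped1 and −0.65 ± 0.68 for Spink8. Of the KO stress libraries left, replicates 1 and 2 are low-numbered and replicate 4 is high-numbered. In replicates 1 and 2 the mean log2(CPM + 0.5) of thalamus and habenula markers lay above 4.07, the highest of the WT stress libraries left. In KO stress replicate 4 it was 3.55. The KO against WT values without these libraries are thus not separated from thalamic transcripts or from class.

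Stress was also set against control within each library class over both genotypes, in 1 fit of 8 group and class means. In the high-numbered libraries 0 of the 8 passed, where 0.846% of all genes did (0.779% higher and 0.0674% lower), and the log2 fold changes were −0.38 ± 0.31 for Spink8, −0.26 ± 0.26 for Fibcd1, −0.18 ± 0.13 for Wfs1, −0.30 ± 0.18 for Pou3f1, −0.38 ± 0.15 for Mpped1, −0.012 ± 0.19 for Gpr161, −0.33 ± 0.09 for Grik4 and 0.16 ± 0.30 for Coch. Grik4 came nearest to the threshold (adjusted p = 0.0930, edgeR), and a DESeq2 Wald test called it (adjusted p = 0.0288), where DESeq2 called 3.81% of all genes. With limma voom, Grik4, Mpped1, Pou3f1 and Spink8 passed, all lower under stress, where 14.2% of all genes did. Without KO stress replicate 4, the edgeR test called Grik4, Mpped1 and Pou3f1 (9.62% of all genes), and without WT stress replicate 6 Grik4 (1.5% of all genes). Without the 3 stress libraries with thalamic transcripts the values were 0.15 for Spink8, 0.08 for Pou3f1, −0.07 for Mpped1 and −0.21 for Grik4, and 0 passed (0.253% of all genes).

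In the low-numbered libraries 0 of the 8 passed, where 0% of all genes did (1109 at an unadjusted p under 0.05 in edgeR, Gpr161 being 1 of them). Gpr161 had a log2 fold change of −0.80 ± 0.22 (adjusted p = 0.686, edgeR), Spink8 0.23 ± 0.36 and Grik4 −0.11 ± 0.10. The other 5 lay between −0.12 (Mpped1) and 0.04 (Coch). The high-numbered stress effect minus the low-numbered one passed for 0 of the 8, where 0.0184% of all genes did, with 0.79 ± 0.30 for Gpr161 (adjusted p = 0.272, edgeR) and −0.61 ± 0.48 for Spink8, or −0.083 ± 0.42 without the libraries with thalamic transcripts. Of the 25 other CA1 and CA3 markers, 0 passed in any comparison of stress or genotype.

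**Figure D4:**
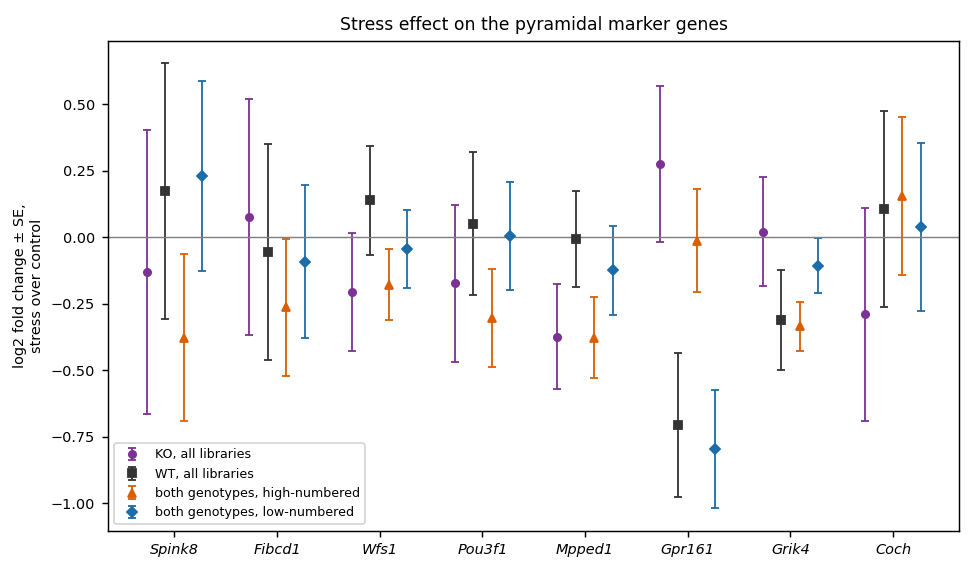
Log2 fold change of stress over control (y axis) for each gene (x axis), with bars of 1 SE, in KO mice, in WT mice, and over both genotypes in the high-numbered and in the low-numbered libraries. No value passed the threshold; the values farthest from 0 are those of Gpr161 in WT mice, −0.70, and in the low-numbered libraries, −0.80.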

How the data were processed

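RNA-seq libraries of mouse hippocampus were deposited by the authors as whole-number read counts per gene symbol, with no normalization. The submitters' processing notes name STAR, DESeq2 and the build mm10 without version or role. The counter, its annotation and its use of strand were not named in the sources. Of the counts from 1 to 10 in a library, 70.9% to 75.8% were even, so both reads of a pair appear to be counted. A gene with 3 reads stood at 0.0854 to 0.117 CPM, a floor that covers counting error only. No 2 libraries agreed within sampling noise (smallest mean chi-square per gene 5.78). The authors' normalized counts and their table of 1 comparison were not used here.

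Genes were tested with edgeR 4.0.16 (R 4.3.3; quasi-likelihood F test, robust, TMM) after a filter on low counts (minimum count 10), which kept 16313 of the 24062 genes (3153 were at 0 throughout). Fits had 4 group means (20 residual degrees of freedom), group and class (19) or 8 group and class means (16), with Benjamini-Hochberg adjustment over all tested genes and a threshold of 0.05. Each SE is approximate, namely |log2 fold change| over the root of F. Scripts were tested on simulated data. Correlations used 100000 permutations within a class, without regard to group, and a pseudocount of 0.5. Alternatives were RLE factors, DESeq2 1.42.0, limma 3.58.1 voom, 2 other filters, other sets of samples, a class, thalamus or replicate term, other pseudocounts and leaving out each library.

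The 8 genes, the other lists and the tests were chosen with earlier results of these data known. Named genes were the 8 in every comparison, up to 6 further CA1 and CA3 markers with the smallest p between classes, 3 most similar genes per marker, at most 2 genes per region list, and Rn45s, Malat1, Lars2 and Il1r1. Iyd, Bok, Tyro3, Plagl1, Kcnh7 and Zbtb20 were named after their values were seen. One of the most similar genes is not reported here.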

Additional observations from a re-analysis of the deposited data

Results flagged for a closer look

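In each of the 4 groups, the highest and the lowest library were set against the others for each of the 8 genes by Dixon's test, over 32 sets of 5 to 7 libraries, where chance singles out about 1 in 20 sets. Single libraries stood apart in 4, all of them high-numbered, in groups that mix both library classes. Spink8 had 22.3 CPM in KO stress replicate 4, where the next highest of the 5 libraries had 8.87 CPM, and 41.8 CPM in WT stress replicate 6, where the next of 6 had 19.8 CPM. Pou3f1 had 107 CPM in the same KO stress replicate 4, above 54.5 CPM in the next. KO stress replicate 4 is the 1 high-numbered KO stress library without thalamic transcripts. Gpr161 had 5.87 CPM in KO control replicate 6, above 3.70 CPM in the next of 6. Within the 4 high-numbered WT stress libraries, the gap of Spink8 in replicate 6 was 0.752 of the range, under the critical value of 0.829, and the other sets hold 2 or 3 high-numbered libraries, too few for this test.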

How the results depend on the processing

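The count of 7 genes that differed between the classes was 7 with RLE factors, DESeq2, limma voom, either filter, no group term, control libraries only and without the 3 libraries with thalamic transcripts, and 7 whichever library was left out. It was 0 in the stress libraries only, 5 in these without the 3 libraries and 6 with the thalamus markers as a term (the cause was not tested), and Gpr161 turned to −0.10 in the control libraries only. The count of 0 for stress in the high-numbered libraries was 1 with DESeq2 and 4 with limma voom, and ranged from 0 to 3 with 1 library left out. The counts of 0 in the other comparisons stayed at 0 in every alternative run. Without the 3 libraries with thalamic transcripts, correlations that passed in the high-numbered class numbered 4 of 28 between genes and 3 of 32 with region markers, against 13 and 14 over all 13 libraries; the cause was not tested. The fits of stress libraries and of high-numbered libraries without these 3, and the correlations without them, were chosen after seeing the data.

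Values that did not pass changed sign as follows, and the cause was not tested. With limma voom the stress effect in WT was −0.060 for Spink8 and −0.048 for Pou3f1, in KO −0.022 for Fibcd1 and −0.013 for Grik4, and in high-numbered libraries 0.049 for Gpr161. Without the 3 libraries it was 0.11 for Mpped1 in WT, 0.12 for Spink8 and −0.011 for Grik4 in KO, and in high-numbered libraries 0.15 for Spink8, 0.071 for Fibcd1, 0.0042 for Wfs1, 0.084 for Pou3f1 and 0.082 for Gpr161. With class as a term it was −0.19 for Fibcd1 and −0.12 for Grik4 in KO. Within high-numbered libraries it was −0.0013 for Spink8 and −0.072 for Pou3f1 in WT, −0.35 for Fibcd1, −0.22 for Grik4 and 0.074 for Coch in KO, and the KO against WT difference of Gpr161 in controls was 0.25. Within them without the 3 libraries, it was 0.14 for Mpped1 in WT, 0.11 for Spink8 and 0.062 for Pou3f1 in KO, and 0.25 for Gpr161 between control genotypes. Within low-numbered libraries it was −0.0074 for Wfs1 and 0.0060 for Mpped1 in WT, and 0.13 for Spink8, −0.16 for Fibcd1, −0.11 for Gpr161 and −0.075 for Grik4 in KO.

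Replicate numbers are shared between groups, and the classes in part follow these numbers. The deviations of same-numbered libraries from their group means had r of −0.28 to 0.49 over 22 pairs, 13 of them over 0.1, and of −0.32 to 0.40 after class was taken out. As not every pair was over 0.1 and no label ties the numbers to a litter, batch or day, the numbers were not taken to pair the libraries. With the replicate number as a block, 0 of the 8 genes passed for stress in WT or KO, as without it, and Mpped1 in WT was 0.015 and Spink8 in KO 0.11.

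With 1 library left out, the stress effect in WT ran from −0.29 to 0.40 for Spink8, −0.31 to 0.10 for Fibcd1, −0.026 to 0.25 for Wfs1, −0.14 to 0.16 for Pou3f1, −0.086 to 0.10 for Mpped1 and −0.085 to 0.28 for Coch. In KO it ran from −0.67 to 0.17 for Spink8, −0.31 to 0.33 for Fibcd1, −0.47 to 0.0049 for Pou3f1 and −0.14 to 0.14 for Grik4. In high-numbered libraries it ran from −0.16 to 0.17 for Gpr161, and in low-numbered ones from −0.058 to 0.44 for Spink8.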
